A study of Mus musculus with 6 samples.

Results

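Fibroblasts that lack TIAR were compared directly with fibroblasts that lack TIA1. The 4 arrays labelled with either knockout were taken out of the 6 arrays of the study by their labels, and all 55681 probes that were not controls were kept. Mouse embryonic fibroblasts (MEF) are connective tissue cells cultured from embryos, and both lines were immortalized. The TIAR KO MEF carried a knockout of TIAR, the protein of the gene Tial1, and were labelled as C57BL/6. The TIA1 KO MEF carried a knockout of TIA1 and were labelled as BALB/c. Each line was represented by 2 arrays, which the series describes as independent replicates, and the wild-type arrays, labelled as strain W4, did not enter the comparison. How many embryos or clones stood behind each line, and which of the embryonic stages the study mentions applied to each, is not given in the sources used here. Genotype, strain and line changed together, and the TIAR KO arrays lay in row 1 and the TIA1 KO arrays in row 2 of the same slide, so these effects cannot be told apart.

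TIA1 and TIAR are closely related RNA-binding proteins. They bind U-rich sequences in RNA, take part in the choice of splice sites in the nucleus, repress the translation of some messenger RNAs in the cytoplasm and gather in stress granules when translation stops. Fibroblasts from different places in the body keep a memory of position, held mainly in the Hox genes, and differ in the matrix, the growth factors and the Wnt regulators that they secrete. The comparison asked which functions separated the 2 knockout lines.

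Of 47 function lists, Hox genes had the largest share of called genes in the fit of the 4 arrays. TIAR KO MEF had higher RNA of some Hox genes of the hindbrain and trunk, of the fibroblast surface marker Thy1 and of decorin. Lipoprotein lipase and the complement components C1r and C1s were also higher there. TIA1 KO MEF had higher RNA of the distal Hox genes Hoxa11 and Hoxd13, of the hindlimb factors Pitx1 and Tbx4, of some secreted Wnt antagonists and of the IL-33 receptor. IGF-binding proteins were called in both directions. No gene of the mitosis, autophagy, glycolysis, ribosomal protein or splicing factor lists was called in the fit of the 4 arrays. Of all named genes 3.76% were called there, a share that leaves few calls in lists of these sizes. Some genes of these lists were called under other settings given below. These were bulk RNA samples, in which fewer cells of a type and less RNA per cell cannot be told apart.

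By the scanner software's own call, 24796 and 26011 probes of the TIAR KO arrays and 16021 and 19996 of the TIA1 KO arrays were well above background. Spot intensities had a median of 136 and 119 on the former and of 458 and 218 on the latter. Negative-control spots, which match no mouse RNA, had a median intensity of 96.7 and 88.6 on the TIAR KO arrays and of 196 and 119 on the TIA1 KO arrays. The TIA1 KO arrays were thus brighter, controls included, and had fewer probes above background, and the part of this in the results below was tested only through the other scalings. All values below are the deposited log2 values, which have a median between 7.27 and 7.31 on each of these arrays. A value near 7 was mostly at background. Differences are TIAR KO minus TIA1 KO on the log2 scale with the standard error of the fit (n = 2 arrays per group), and a probe was called at a limma adjusted p under 0.05 and a difference above 2-fold. Where neither array of the lower line was rated above background for a probe, the fold is given as a lower limit against the background of those arrays.

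The knocked-out genes were read first, as a check of the labels. The brightest probe of Tial1 (mm9, chromosome 7, 135585977 to 135586036) read 9.80 and 11.78 in TIAR KO and 14.20 and 13.77 in TIA1 KO MEF, a difference of −3.20 ± 0.74 (limma adjusted p = 0.136). A second Tial1 probe (135583306 to 135583365) read 10.23 and 9.86 against 12.06 and 11.65, or −1.81 ± 0.25 (adjusted p = 0.0635). Both were lower in the line labelled TIAR KO without overlap, and both were well above background on all 4 arrays. Of the Tia1 probes, the brightest (chromosome 6, 86383073 to 86383132) read 9.75 and 9.77 in TIAR KO and 7.52 and 8.38 in TIA1 KO MEF, 1.81 ± 0.34 higher in TIAR KO (adjusted p = 0.104). A further Tia1 probe ran the same way, 10.14 and 8.79 against 7.31 and 8.69, and the third, which was not well above background on either TIAR KO array, ran the other way (−1.04). None of the 5 probes was called. Which exons the knockouts removed is not given in the sources used here, so whether these probes lie in the deleted parts was not tested. Gapdh differed by 0.13 and Actb by 0.13, and neither was called.

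Both lines carried fibroblast markers. Of 11 markers, 10 were well above background on both TIAR KO arrays and 8 on both TIA1 KO arrays. Their summed signal had log2 values of 20.49 and 20.52 in TIAR KO and 20.42 and 20.40 in TIA1 KO MEF, and Col1a2 gave the most of it. Collagen I (Col1a1), vimentin (Vim) and S100a4 differed by 0.33, 0.05 and 0.40 and were not called. Lum was near background on all 4 arrays. Thy1 and Dcn, described below, were the markers called, both higher in TIAR KO MEF. Markers of other cell types were mixed. Of 6 macrophage markers, 4 were rated above background on both TIAR KO arrays and 3 on both TIA1 KO arrays. Their summed signal had log2 values of 13.41 and 13.41 in TIAR KO and 14.50 and 14.30 in TIA1 KO MEF, and Itgam gave the most of it, while the defining genes Ptprc and Adgre1 were not above background on any array. Cd68 was called higher in TIAR KO and Cd14 and Itgam higher in TIA1 KO MEF. Of 4 skeletal muscle markers Des was called, at least 2.28-fold higher in TIAR KO MEF, and Myod1, Myog and Myf5 were not above background on any array. In the wider muscle list Tnnc2 was also called higher in TIAR KO MEF, and Acta1 read 11.89 and 11.34 against 10.81 and 10.49. The neural progenitor filament gene Nes read 11.04 and 9.25 in TIAR KO and 15.27 and 15.36 in TIA1 KO MEF, a difference of −5.17 that was not called (adjusted p = 0.0551). In the wider neural list Map2 and Mbp were called higher in TIAR KO and Gap43 higher in TIA1 KO MEF. Sox10, a neural crest factor, was rated above background on both TIAR KO arrays (7.78 and 7.97 against 7.26 and 7.07), and Gfap, a glial filament, on none. Of 6 endothelial markers 0 were called by limma (0 at an unadjusted p under 0.05), and their summed signal, mostly Kdr, lay between 11.93 and 12.14 on the 4 arrays (log2), with Cdh5 not above background on any array. In the wider list of 16 endothelial genes Ramp3 was called, higher in TIA1 KO MEF (10.10 and 9.94 against 14.20 and 14.12), and Egfl7 differed by −1.89 and was not called. Of 7 epithelial markers Cdh1 was called, higher in TIAR KO MEF. The summed signal of the 7, mostly Krt19, ran the other way. It had log2 values of 13.23 and 13.12 in TIAR KO and 13.51 and 13.59 in TIA1 KO MEF. Of 4 T or B cell markers 0 were called by limma (1 at an unadjusted p under 0.05). The part of these markers in the results below was not tested.

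Of 14 sex-linked genes 1 was called (7.14%, against 3.76% of all named genes). The Y-linked RNA helicase gene Ddx3y read 11.65 and 11.77 in TIAR KO and 6.98 and 7.02 in TIA1 KO MEF, close to background there, and was at least 18.8-fold higher in TIAR KO MEF (adjusted p = 0.0108). Uty read 7.54 and 7.30 against 6.63 and 6.72, and Eif2s3y was near background on all 4 arrays. Zfy2, Kdm5d and Sry, also Y-linked, ran the other way by −1.30, −1.30 and −1.40 and were not called. Of these Zfy2 was rated above background on 1 TIA1 KO array, at 8.85, and the others on none. Xist, which silences the second X chromosome of female cells, read 6.70 and 6.49 in TIAR KO and 10.59 and 7.65 in TIA1 KO MEF. The TIA1 KO arrays lay far from each other, and the difference was not called (adjusted p = 0.274). The sex of the embryos behind each line is not given in the sources used here, and a difference in it cannot be told apart from genotype. Of 7 measured genes that are known to differ between C57BL/6 and BALB/c mice, the MHC class I genes H2-K1 and H2-D1 were called, both higher in TIA1 KO MEF, while under common-median scaling neither was called and 3 others of the 7 were, all higher in TIAR KO MEF. H2-K1 read 13.42 and 13.53 against 15.07 and 15.12, and H2-D1 read 12.41 and 12.22 against 14.35 and 14.11. The strains carry different alleles of these genes, and whether the probes bind both alleles equally was not tested. Of the other strain genes, H2-Q7 read 11.43 and 11.93 against 13.60 and 13.50, a difference of −1.87 that was not called (adjusted p = 0.0555). Ly6a, Ly6c1 and Nnt differed by 0.76, 0.91 and 0.575 and were not called. H2-Ea-ps was not above background on any array.

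Across all probes, 1278 of 55681 were called (2.30%). Of these, 610 (1.10% of all probes) were higher in TIAR KO and 668 (1.20%) were higher in TIA1 KO MEF. Among the 22608 named genes, each read from its brightest probe, 851 were called (3.76%), 414 (1.83%) higher in TIAR KO and 437 (1.93%) in TIA1 KO MEF. Of 16251 lincRNA probes, 163 were called (1.00%), 54 higher in TIAR KO and 109 in TIA1 KO MEF. The called differences were large. By the means of the deposited values, 208 exceeded 16-fold, 93 of them higher in TIAR KO and 115 in TIA1 KO MEF. Such a fold can exceed the lower limit given against background. Tbx1 had a fold of 18.1 by the means and a lower limit of 11.5. In 1176 called probes (92.0%) the scanner rated both arrays of the higher line as well above background, and in 678 it rated neither array of the lower line so. The 2 arrays of a group did not overlap with the other 2 in 33508 of 55515 probes (60.4%), so lack of overlap by itself set few genes apart. The median difference over all probes was 0.10. At an unadjusted limma p under 0.05 there were 11935 of the 55681 probes.

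The count depended on the arrays and on their scaling. Without TIAR KO replicate 1, and likewise without TIAR KO replicate 2, 0 probes were called by limma, with 6204 and 6294 at an unadjusted p under 0.05. Without TIA1 KO replicate 1, 1808 were called, and without TIA1 KO replicate 2, 11386. The split between directions moved with the scaling: 47.7% of the called probes were higher in TIAR KO MEF on the deposited values, 87.2% under scaling to 1 shared median, here named common-median scaling, which shifted the median difference to 0.63, and 8.28% when the processed signal was scaled to its 75th percentile, which shifted it to −1.85. Of the 1278 called probes, 1118 were also called under the former and 525 under the latter.

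**Figure D1:**
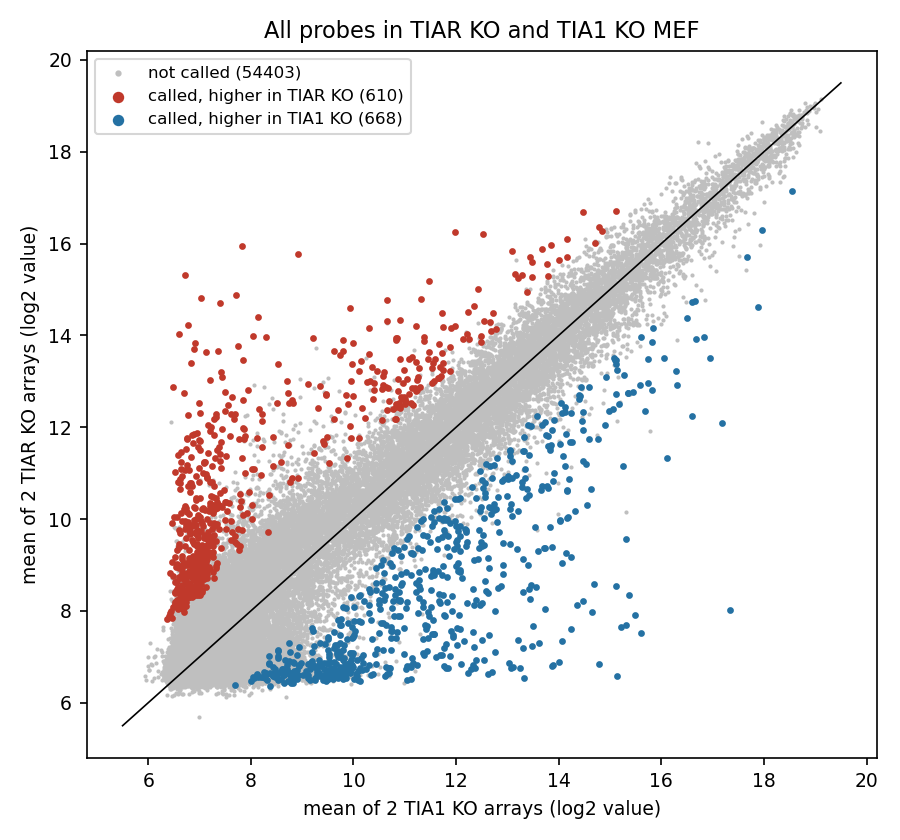
Each point is 1 of 55681 probes, at its mean log2 value on the 2 TIA1 KO arrays (x axis) and on the 2 TIAR KO arrays (y axis), with the line of equal values. The 610 probes called higher in TIAR KO MEF (red) and the 668 called higher in TIA1 KO MEF (blue) lie on both sides of it, many of them at the background of the other line, where values are about 7.

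The 10 largest called differences toward TIAR KO MEF were those of Lpl, Isyna1, Thy1, Rpl39l, Upk3b, Ptgis, Aldh1a1, Dcn, Clca3a1 and Scube3. Where the lower line was at background the fold is a lower limit. The ranking, here and in the next paragraph, therefore holds for the deposited values only. Lpl, the lipase that frees fatty acids from circulating lipoproteins, read 15.35 and 15.29 in TIAR KO and 6.73 and 6.72 in TIA1 KO MEF, at least 255-fold higher (difference 8.60 ± 0.16, adjusted p = 0.0101). Isyna1, which makes inositol phosphate from glucose phosphate, read 16.11 and 15.80 against 7.29 and 8.37, a difference of 8.12 ± 0.43. In both genes the lines were separated by more than 7 log2 units, far beyond the spread within a line. Thy1, a surface glycoprotein used to mark fibroblasts, read 14.83 and 14.79 against 6.87 and 7.18, at least 153-fold higher. Ptgis, the prostacyclin synthase, read 14.58 and 14.82 against 7.39 and 7.41, although its second probe read 8.07 and 8.08 against 7.59 and 7.07 and was not called. For Rpl39l, a paralog of a ribosomal protein, the fit dropped TIAR KO replicate 1, whose spot was missing, and the remaining array read 14.22 against 6.95 and 6.59.

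The 10 largest toward TIA1 KO MEF were those of Il1rl1, Gjb2, Sfrp2, Ctsh, Efemp1, Prl2c5, Lrrc32, Blnk, Tmem45a and Pitx1. Il1rl1, the receptor of IL-33, read 7.88 and 8.17 in TIAR KO and 17.23 and 17.45 in TIA1 KO MEF (difference −9.31 ± 0.20, adjusted p = 0.0101), and all 3 of its probes were called in this direction. Gjb2, a connexin of gap junctions, read 6.59 and 6.59 against 15.12 and 15.15, a fold of at least 374. In TIAR KO MEF the scanner rated Gjb2 as not above background on either array, whereas the brightest Il1rl1 probe was above background on all 4 arrays. Ctsh, a lysosomal cathepsin, read 7.14 and 6.54 against 14.85 and 14.74. Lrrc32, which holds latent TGF-beta at the cell surface, read 7.64 and 7.67 against 15.21 and 15.21. Blnk, an adaptor of B-cell receptor signalling, read 6.68 and 7.09 against 14.02 and 14.01. It was 1 of 5 genes called in a list of 25 macrophage and leukocyte genes (20%, against 3.76% of all named genes). Of the 5, 2 were higher in TIAR KO and 3 higher in TIA1 KO MEF, against 2 and 2 under common-median scaling and 1 and 3 under 75th-percentile scaling. Prl2c5 belongs to the proliferins, a family of near-identical genes, and its signal (7.87 and 7.93 against 15.51 and 15.46) may include other members.

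Hox genes encode transcription factors that lie in 4 clusters and are used in order along the body axis, low numbers toward the head and high numbers toward the tail and the tips of the limbs. Of 39 Hox genes measured, 18 were called (46.2%, against 3.76% of all named genes), 14 higher in TIAR KO and 4 higher in TIA1 KO MEF. The balance moved with the scaling, to 21 and 8 under common-median scaling and to 5 and 5 under 75th-percentile scaling. Their median difference was 1.43, against 0.08 over all named genes. All 13 called genes of paralog groups 1 to 9, out of 27 measured, were higher in TIAR KO MEF. Of the 12 genes of groups 10 to 13, 4 were called higher in TIA1 KO and 1, Hoxc13, higher in TIAR KO MEF. By cluster, 6 of 10 Hoxb genes and 5 of 9 Hoxc genes were called, all higher in TIAR KO MEF, while the 11 Hoxa genes gave 1 and 2 calls and the 9 Hoxd genes 2 and 2 calls toward TIAR KO and TIA1 KO MEF.

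The promoters of 4 of these genes are shown because the genes lie within a pair of clusters and ran in opposite directions there. Each window holds 250 bases before and 50 bases from the annotated start, read from RefSeq on GRCm38.p6 in the direction of the gene, with CG dinucleotides in capitals. Hoxd13 (chr2:74667975-74668274, plus strand) and Hoxa11 (chr6:52245761-52246060, minus strand) were called higher in TIA1 KO MEF, and Hoxd8 (chr2:74704365-74704664, plus strand) and Hoxa2 (chr6:52164782-52165081, minus strand) higher in TIAR KO MEF.
Hoxd13: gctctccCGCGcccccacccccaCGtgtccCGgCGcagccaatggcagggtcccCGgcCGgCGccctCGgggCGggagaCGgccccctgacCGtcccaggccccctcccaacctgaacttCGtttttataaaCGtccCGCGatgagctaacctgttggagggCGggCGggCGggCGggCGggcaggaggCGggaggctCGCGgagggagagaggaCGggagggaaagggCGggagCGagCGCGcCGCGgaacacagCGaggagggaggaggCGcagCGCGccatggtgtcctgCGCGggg
Hoxa11: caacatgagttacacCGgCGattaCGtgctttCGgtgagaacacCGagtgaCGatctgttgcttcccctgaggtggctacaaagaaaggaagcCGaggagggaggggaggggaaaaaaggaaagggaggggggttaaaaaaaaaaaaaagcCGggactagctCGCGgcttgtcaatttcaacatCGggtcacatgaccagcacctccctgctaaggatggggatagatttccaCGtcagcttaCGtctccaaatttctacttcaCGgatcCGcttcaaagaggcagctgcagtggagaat
Hoxd8: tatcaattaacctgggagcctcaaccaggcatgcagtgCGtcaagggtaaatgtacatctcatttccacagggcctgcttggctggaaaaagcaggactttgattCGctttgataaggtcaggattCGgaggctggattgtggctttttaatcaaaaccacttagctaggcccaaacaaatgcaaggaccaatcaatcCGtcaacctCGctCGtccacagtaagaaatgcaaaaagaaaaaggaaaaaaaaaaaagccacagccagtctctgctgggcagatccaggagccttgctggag
Hoxa2: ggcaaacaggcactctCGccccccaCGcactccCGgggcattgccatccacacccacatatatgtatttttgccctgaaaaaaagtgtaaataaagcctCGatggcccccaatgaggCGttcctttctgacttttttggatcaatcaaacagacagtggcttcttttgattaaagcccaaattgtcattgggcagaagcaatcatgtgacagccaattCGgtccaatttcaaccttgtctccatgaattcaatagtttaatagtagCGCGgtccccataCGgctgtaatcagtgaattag
The windows held 37, 15, 6 and 9 CG. The RefSeq table gave promoters for 22 of the 39 genes. The 5 promoters of 5 genes called higher in TIAR KO MEF held between 4 and 13 CG (median 9), and the 5 promoters of the 4 genes called higher in TIA1 KO MEF between 12 and 37 (median 21). Hox genes that were not called spanned the range of both, from 4 to 45 (median 20), and the median of all 32851 promoters was 7. The letters searched were CG, which reads the same on both strands, and the counts describe sequence only.

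On the deposited values, Hoxb6 had the largest difference of the family toward TIAR KO MEF. Its probe (mm9, chromosome 11, 96162563 to 96162622) read 14.44 and 14.38 in TIAR KO and 7.63 and 8.66 in TIA1 KO MEF, a difference of 6.26 ± 0.40 (adjusted p = 0.0166). Hoxb2 read 12.40 and 12.58 against 7.80 and 7.30, and Hoxb7 read 12.17 and 12.19 against 7.0 and 7.56. These are genes of the hindbrain and trunk, and both were at background in TIA1 KO MEF, at least 29.3-fold and 21.6-fold lower. Hoxc9, a thoracic gene, read 11.85 and 12.08 against 7.41 and 7.46, at least 19.3-fold higher in TIAR KO MEF. Hoxc6 read 12.40 and 12.04 against 6.92 and 7.73. Of the genes whose promoters are printed, Hoxd8 read 10.79 and 11.23 against 6.83 and 7.30, and Hoxa2 read 10.36 and 10.17 against 6.81 and 6.97. The remaining genes called in this direction, Hoxb5, Hoxb3, Hoxb8, Hoxc4, Hoxc5, Hoxd4 and Hoxc13, had lower limits of the fold between 2.22 and 13.4.

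Toward TIA1 KO MEF, Hoxd13, which patterns digits and genitalia, read 6.61 and 6.63 in TIAR KO and 12.50 and 12.73 in TIA1 KO MEF, at least 63.8-fold higher in the latter (difference −6.00 ± 0.17, adjusted p = 0.0108). Hoxa11, a gene of the lower limb segments, read 6.86 and 6.67 against 11.84 and 11.78, at least 33.1-fold. Hoxa10 and Hoxd10 were at least 12.5-fold and 7.75-fold higher in TIA1 KO MEF. All 4 were at background on both TIAR KO arrays. Some Hox genes with wide differences were not called. Hoxb4 differed by 3.31 (adjusted p = 0.189), with TIA1 KO arrays at 9.95 and 7.21, while Hoxa7 and Hoxa9 differed by −2.79 and −2.78, toward TIA1 KO MEF, although they belong to groups 1 to 9. The median of the Hox list stayed between 1.23 and 2.34 under every alternative, while its calls fell to 0 without either TIAR KO array and under the replicate block.

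**Figure D2:**
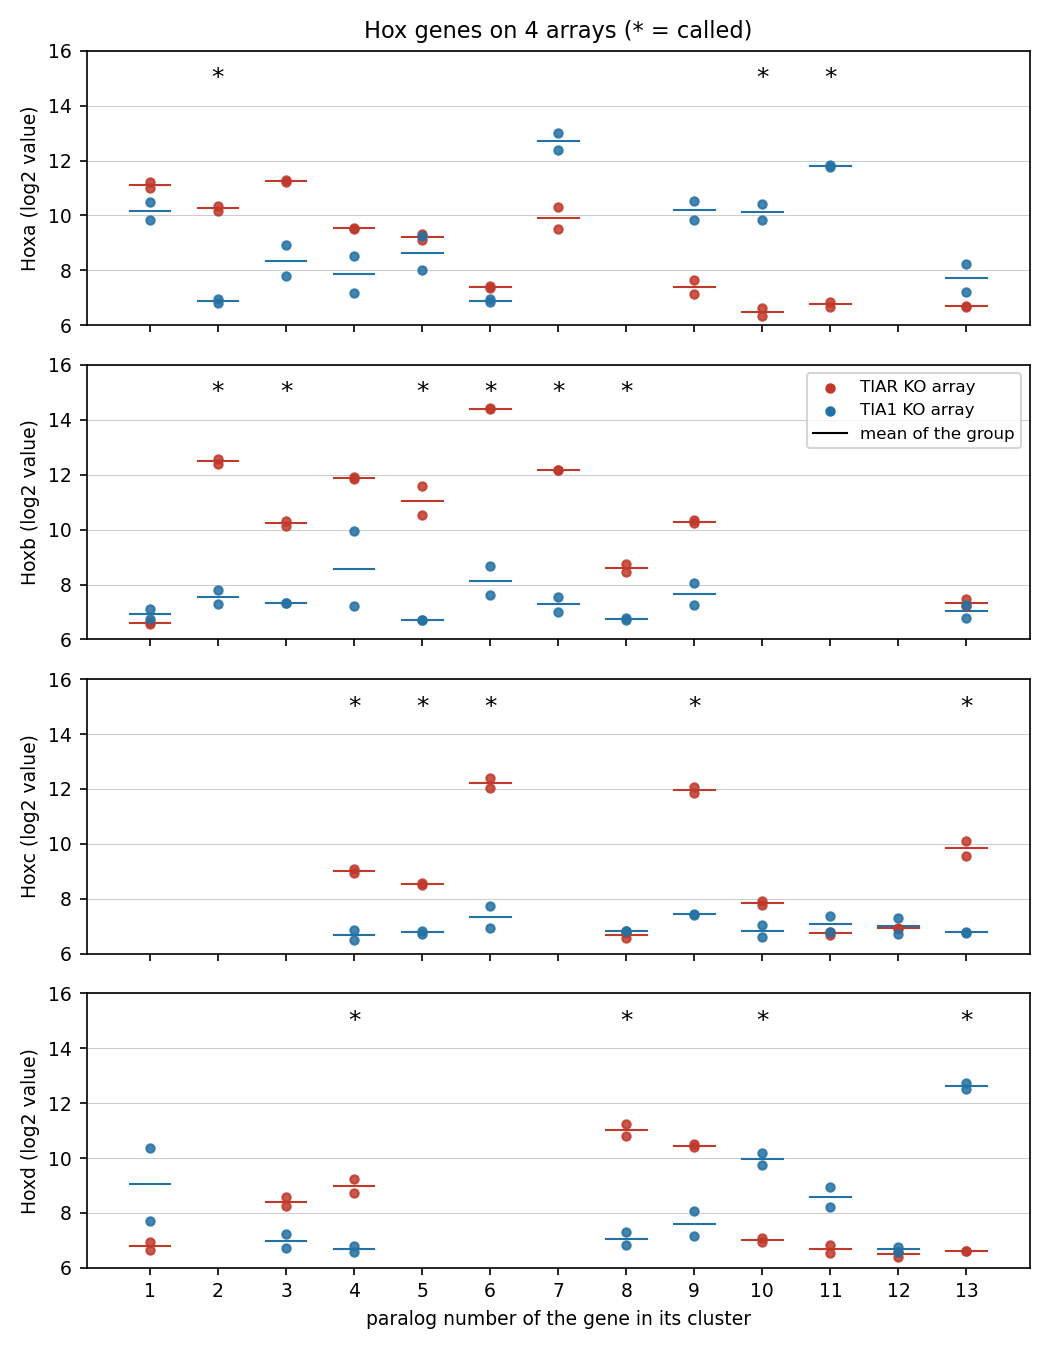
Log2 value (y axis) of each measured Hox gene on the 2 TIAR KO arrays (red) and the 2 TIA1 KO arrays (blue), with the mean of each line, by paralog number (x axis) in 1 panel per cluster; asterisks mark called genes. In the Hoxb and Hoxc panels the called genes are red above blue, and Hoxa10, Hoxa11, Hoxd10 and Hoxd13 are blue above red.

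Other factors that set position and lineage split in both directions. Of 75 listed, 12 were called (16%), 5 higher in TIAR KO and 7 higher in TIA1 KO MEF, against 17 and 12 under common-median scaling and 2 and 12 under 75th-percentile scaling. Pitx1, which specifies the hindlimb, read 6.82 and 6.81 in TIAR KO and 13.98 and 13.79 in TIA1 KO MEF, at least 134-fold higher in the latter. Tbx4, also a hindlimb factor, read 6.44 and 7.05 against 11.30 and 10.76, while its forelimb counterpart Tbx5 was near background on all 4 arrays. Irx3, Osr1 and Msx1 were also called higher in TIA1 KO MEF, by 3.02, 2.98 and 2.95 log2 units.
The factors higher in TIAR KO MEF were those of other regions. Tbx1, a factor of the pharyngeal arches, read 10.89 and 10.7 in TIAR KO and 6.61 and 6.62 in TIA1 KO MEF. Emx2, of the urogenital ridge and the forebrain, read 9.90 and 10.03 against 6.76 and 6.68. Gata6, a factor of visceral mesoderm, was higher in TIAR KO MEF by 2.18 ± 0.21, and Sox11 by 3.04 ± 0.32. The probes of Foxf1, another such factor, disagreed. The one that the array names Foxf1a, an older name of the gene, was called, higher in TIAR KO MEF by 2.7 ± 0.31, while the one named Foxf1 read 8.33 and 8.23 against 9.52 and 7.22 and was not called. They count as 2 of the 75.

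Wnt proteins are secreted signals, held in check outside the cell by Sfrp and Dkk proteins and amplified by R-spondins. Of 42 Wnt genes 11 were called (26.2%), 3 higher in TIAR KO and 8 higher in TIA1 KO MEF, against 5 and 10 under common-median scaling and 0 and 8 under 75th-percentile scaling. Among the antagonists, Sfrp2 read 7.37 and 7.65 in TIAR KO and 15.61 and 15.60 in TIA1 KO MEF (difference −8.09 ± 0.18, adjusted p = 0.0101). Dkk3 read 7.22 and 7.40 against 13.62 on TIA1 KO replicate 1, and the fit dropped TIA1 KO replicate 2, whose spot was missing. Dkk2 read 7.05 and 6.55 against 11.12 and 10.98, and Sfrp1 read 6.90 and 7.28 against 9.62 and 10.25. These 4 were the called antagonists, and all were higher in TIA1 KO MEF. Dkk1, Wif1 and Frzb were near background on all 4 arrays, and Sfrp4 differed by 1.08 and was not called.
Among the ligands, Wnt5b, Wnt10a and Wnt7b were also higher in TIA1 KO MEF, by 4.25, 3.96 and 3.31 log2 units, Wnt10b was at least 18.2-fold higher there, and Wnt4 was higher in TIAR KO MEF, where it read 11.50 and 11.62 against 7.78 and 8.66. Wnt5a differed by 0.17 and was not called. Rspo3, an amplifier of Wnt signalling, read 11.86 and 11.82 in TIAR KO and 6.97 and 6.74 in TIA1 KO MEF, at least 22.7-fold higher in the former. Of the receptors 1 was called, Fzd7, higher in TIAR KO MEF by 1.68 ± 0.17. The target genes Axin2, Nkd1 and Lgr5 were near background on all 4 arrays, and Lef1 and Tcf7 each differed by −0.14.

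IGF-binding proteins capture insulin-like growth factors outside the cell. In the list of the IGF system and imprinted growth genes, 10 of 30 were called (33.3%), 4 higher in TIAR KO and 6 higher in TIA1 KO MEF, against 6 and 7 under common-median scaling and 2 and 5 under 75th-percentile scaling. The binding proteins themselves split. Igfbp4 read 7.49 and 7.0 in TIAR KO and 13.71 and 13.24 in TIA1 KO MEF, Igfbp5 read 7.73 and 7.53 against 12.06 and 11.96, and Igfbp3 read 7.78 and 7.69 against 10.60 and 10.56. Igfbp6, in contrast, read 16.24 and 16.28 against 12.13 and 11.81, a difference of 4.29 ± 0.19. Igfbp2 was at least 2.17-fold higher in TIAR KO MEF. The growth factor Igf1 and the receptor Igf1r differed by 0.48 and 0.12 and were not called, and Igf2 was near background on all 4 arrays.
Several imprinted genes, of which 1 parental copy is expressed, were called. Peg3 read 10.91 and 10.65 in TIAR KO and 6.77 and 6.91 in TIA1 KO MEF, and Sgce read 14.34 and 14.28 against 10.54 and 10.77. Plagl1, a zinc finger factor of the same class of genes, ran the other way, 7.60 and 7.62 against 11.31 and 11.53. Hmga2, a chromatin protein of embryonic cells, was higher in TIA1 KO MEF by 2.69 ± 0.18. H19, Dlk1 and Rtl1 were near background on all 4 arrays.

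Genes of TGF-beta, BMP and activin signalling gave 7 calls among 38 (18.4%), 3 toward TIAR KO and 4 toward TIA1 KO MEF, against 12 and 3 under common-median scaling and 1 and 3 under 75th-percentile scaling. Grem1, a secreted BMP antagonist, read 6.76 and 6.99 in TIAR KO and 13.26 and 12.79 in TIA1 KO MEF, at least 71.0-fold higher in the latter. The activin subunits Inhba and Inhbb were higher there by 3.98 ± 0.26 and 3.33 ± 0.24, and the activin antagonist follistatin (Fst) was higher in TIAR KO MEF by 1.76 ± 0.19. Id1, a target of BMP signalling, read 14.46 and 13.96 against 11.97 and 11.99. Smad9, a transducer of it, read 10.53 and 10.21 against 6.94 and 7.75. The receptor Tgfbr2 was higher in TIA1 KO MEF by 1.97.
Genes of the FGF family were called in 4 of 22 cases (18.2%), 1 toward TIAR KO and 3 toward TIA1 KO MEF, against 4 and 2 under common-median scaling and 1 and 2 under 75th-percentile scaling. Genes of the EGF family were called in 2 of 16 cases (12.5%), 0 and 2, against 2 and 4 under common-median scaling and 0 and 0 under 75th-percentile scaling. Fgf7, a mesenchymal factor that acts on epithelia, read 8.16 and 8.10 in TIAR KO and 14.32 and 14.38 in TIA1 KO MEF, and Fgf10 read 8.03 and 8.06 against 10.19 and 10.83. Fgf18 ran the other way, 13.19 and 12.81 against 9.74 and 10.16. The EGF receptor ligands Hbegf and Ereg were higher in TIA1 KO MEF by 2.63 and 3.1, with TIA1 KO replicate 2 dropped from the fit of Ereg. Notch3 was higher in TIAR KO MEF by 2.69 and Notch1 was at least 5.37-fold higher in TIA1 KO MEF, and the other 16 Notch genes were not called (11.1% called in all, with 5 and 1 calls under common-median scaling and 0 and 1 under 75th-percentile scaling).

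Genes of axon guidance and nerve growth were called in 7 of 52 cases (13.5%), 0 of them higher in TIAR KO MEF, where 11 genes had an unadjusted limma p under 0.05. Under common-median scaling, 11 were called higher in TIAR KO and 6 higher in TIA1 KO MEF, and under 75th-percentile scaling 0 and 6. Gdnf, a survival factor of neurons that fibroblasts can secrete, read 7.64 and 7.56 in TIAR KO and 14.25 and 14.24 in TIA1 KO MEF (difference −6.64 ± 0.16, adjusted p = 0.0101). Gap43, a protein of growing axons, read 6.72 and 6.84 against 13.26 and 12.97, at least 80.7-fold. Sema5a, a guidance cue, read 8.14 and 7.93 against 13.88 and 13.57. Sema7a and Ntn1 were higher in TIA1 KO MEF by 3.05 and 1.65 log2 units, and Robo1 was at least 15.2-fold higher.

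**Figure D3:**
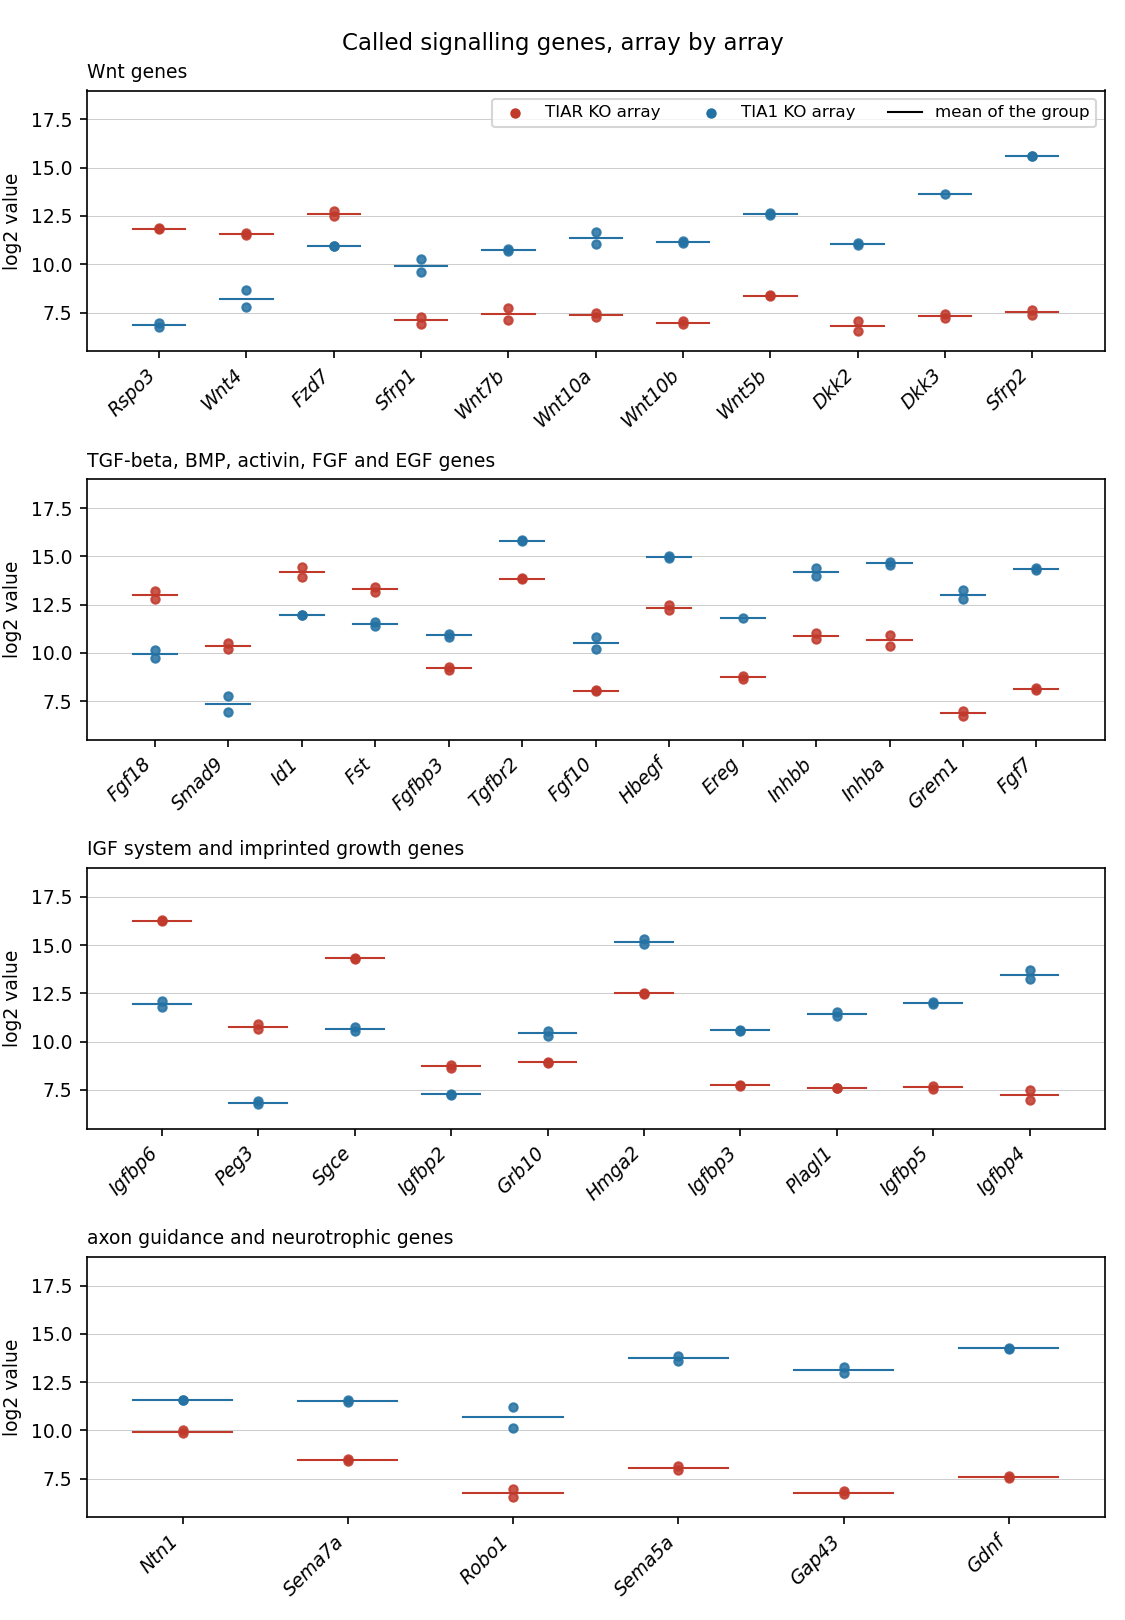
Log2 value (y axis) of the called genes of 6 signalling lists that are reported here (x axis) on the 2 TIAR KO arrays (red) and the 2 TIA1 KO arrays (blue), with the mean of each line; Dkk3 and Ereg have 1 TIA1 KO array. Sfrp2 at 15.61 and 15.60 and Gdnf at 14.25 and 14.24 in TIA1 KO MEF stand far above TIAR KO MEF, and Igfbp6 at 16.24 and 16.28 in TIAR KO MEF far above TIA1 KO MEF.

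The main collagens were not among the called matrix genes, while several accessory proteins were. Of 23 genes for fibrillar collagens and their maturation, 4 were called (17.4%), 3 toward TIAR KO and 1 toward TIA1 KO MEF, against 8 and 0 under common-median scaling and 2 and 0 under 75th-percentile scaling. All 4 were processing genes: P4ha3, a prolyl hydroxylase subunit, was at least 9.51-fold higher in TIAR KO MEF, Adamts2, a procollagen protease, and Pcolce2, its enhancer, were higher there by 3.44 and 2.02, and the cross-linking enzyme Lox was higher in TIA1 KO MEF by 2.14. Col1a1, Col1a2 and Col3a1 differed by 0.33, −0.23 and 0.23. Col6a3, a chain of collagen VI, read 9.25 and 9.87 in TIAR KO and 15.31 and 15.30 in TIA1 KO MEF (difference −5.75 ± 0.27, adjusted p = 0.0122), whereas its partner Col6a1 differed by 0.06 and Col6a2 by −1.48, with TIAR KO arrays at 12.87 and 10.58, and neither was called. Of 22 basement membrane genes 3 were called (13.6%), 2 toward TIAR KO and 1 toward TIA1 KO MEF, against 8 and 1 under common-median scaling and 0 and 1 under 75th-percentile scaling, with Lamb3 at least 5.5-fold higher in TIAR KO MEF, Col4a5 higher there by 2.59, and Lama2 higher in TIA1 KO MEF by 3.75.

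Of 36 matricellular proteins, proteoglycans and elastic fibre genes, 10 were called (27.8%), 2 toward TIAR KO and 8 toward TIA1 KO MEF, against 9 and 6 under common-median scaling and 1 and 5 under 75th-percentile scaling. Decorin (Dcn), a proteoglycan that binds collagen fibrils, read 15.70 and 15.85 in TIAR KO and 8.48 and 9.35 in TIA1 KO MEF, a difference of 6.86 ± 0.35 (adjusted p = 0.0128). Ogn, a proteoglycan of the same family, was also higher in TIAR KO MEF, by 1.77. The microfibril and fibulin genes that were called ran the other way. Efemp1 read 7.95 and 7.42 against 15.32 and 15.29, Mfap5 read 8.5 and 8.66 against 14.61 and 14.76, and Mfap2 read 7.69 and 7.28 against 12.57 and 12.70. Osteopontin (Spp1) read 11.20 and 11.47 against 16.07 and 16.15, and thrombospondin 2 (Thbs2) 8.55 and 8.52 against 12.99 and 12.76. Thbs1, Ccn2 and Fbln2 were higher in TIA1 KO MEF by between 1.66 and 1.96. Fmod, with a difference of 4.85, was not called (adjusted p = 0.0506).
Proteases and their inhibitors were called in 6 of 26 genes (23.1%), with 10 and 1 calls toward TIAR KO and TIA1 KO MEF under common-median scaling and 0 and 1 under 75th-percentile scaling. The collagenase Mmp13 read 10.24 and 10.26 in TIAR KO and 7.17 and 6.98 in TIA1 KO MEF. Urokinase (Plau), which activates plasminogen, was higher in TIA1 KO MEF by 2.00 ± 0.16. Mmp23 and Adamts1 were higher in TIAR KO MEF by 2.99 and 1.64, and Serpine2 was at least 4.89-fold higher.

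Of 21 integrin genes 6 were called (28.6%), 1 higher in TIAR KO and 5 higher in TIA1 KO MEF, against 2 and 3 under common-median scaling and 0 and 4 under 75th-percentile scaling. Itga1, a collagen receptor subunit, read 9.84 and 9.46 in TIAR KO and 6.77 and 7.14 in TIA1 KO MEF. Itgb7 read 10.12 and 10.22 against 13.29 and 13.12, and Itga7, a laminin receptor subunit, 8.99 and 9.83 against 12.65 and 12.37. Itgb3, Itga6 and the integrin-like gene Itgbl1 were higher in TIA1 KO MEF by 2.04, 1.75 and 4.46. Of 31 genes of cell-cell contact 8 were called (25.8%), 2 and 6, against 5 and 4 and 0 and 3 under these scalings. The connexins Gjb2 and Gja1, subunits of gap junctions, were both higher in TIA1 KO MEF, and Gja1 read 9.87 and 10.09 against 11.88 and 11.74. Pcdh19, Ncam1 and Cdh13 were higher there by 3.0, 2.92 and 2.29. Vcam1, a ligand for leukocyte integrins, read 16.05 and 15.90 in TIAR KO and 13.79 and 13.90 in TIA1 KO MEF.

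**Figure D4:**
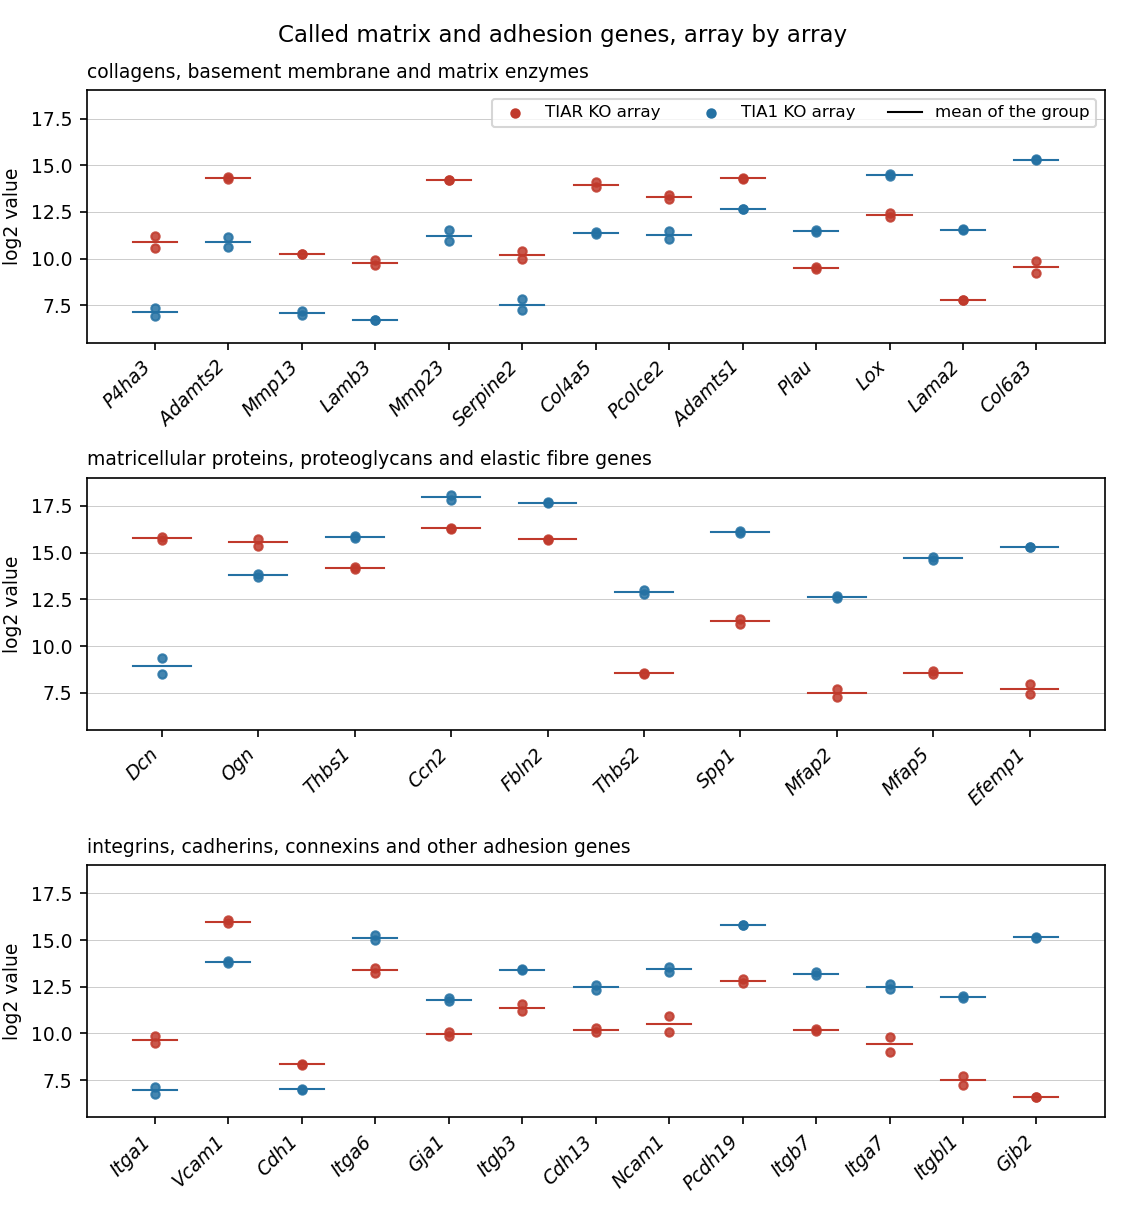
Log2 value (y axis) of the called genes of the matrix and adhesion lists that are reported here (x axis) on the 2 TIAR KO arrays (red) and the 2 TIA1 KO arrays (blue), with the mean of each line. Dcn at 15.70 and 15.85 in TIAR KO MEF, and Efemp1, Mfap5, Col6a3 and Gjb2, each between 14.61 and 15.32 in TIA1 KO MEF, lie far from the other line.

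Markers of mesenchymal subtypes were mixed. Upk3b, a uroplakin of mesothelium, read 13.90 and 14.16 in TIAR KO and 6.03 and 7.17 in TIA1 KO MEF, at least 89.3-fold higher in the former, and Wt1, a transcription factor of mesothelium and kidney, read 11.13 and 10.74 against 6.80 and 7.08. Mesothelin (Msln), named for the same tissue, ran the other way, 14.76 and 14.47 against 17.99 and 17.76. Perp, a desmosome protein, read 8.07 and 8.37 against 14.43 and 14.51. These were the 4 calls among 17 epithelial and mesothelial genes (23.5%), 2 in each direction, against 4 and 3 under common-median scaling and 1 and 2 under 75th-percentile scaling. Of 18 smooth muscle genes 5 were called (27.8%), 4 higher in TIAR KO and 1 in TIA1 KO MEF, against 9 and 1 under common-median scaling and 2 and 0 under 75th-percentile scaling. Actg2, an actin of visceral smooth muscle, read 13.02 and 13.15 against 6.93 and 7.94, calponin (Cnn1) was higher by 2.77 ± 0.17, and Mylk and Des were at least 2.37-fold and 2.28-fold higher, whereas Csrp2 was lower by 2.77. Acta2, Tagln and Myh11 differed by 0.66, 0.46 and −0.92 and were not called. In the PDGF and fibroblast list 5 of 23 were called (21.7%), 3 and 2, against 9 and 2 under common-median scaling and 1 and 1 under 75th-percentile scaling. Pdgfd read 7.51 and 6.47 against 11.26 and 11.95, while the receptors Pdgfra and Pdgfrb differed by 1.39 and 0.17 and were not called. Dpt and Pi16, markers of adventitial fibroblasts, were at least 2.74-fold and 2.26-fold higher in TIAR KO MEF.
Of 21 adipogenic and lipid genes 3 were called (14.3%), 1 toward TIAR KO and 2 toward TIA1 KO MEF, against 5 and 0 under common-median scaling and 1 and 1 under 75th-percentile scaling. Beside Lpl these were Pparg, the main regulator of fat cell formation, and the lipid droplet protein Plin2, both in the other direction. Pparg read 10.34 and 10.64 in TIAR KO and 12.56 and 12.57 in TIA1 KO MEF, and Plin2 14.68 and 14.77 against 16.56 and 16.62. The fat cell genes Adipoq and Cfd were near background on all 4 arrays.

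Complement proteins mark surfaces for removal, and fibroblasts secrete some of them. Of 25 complement genes, 5 were called (20.0%), all higher in TIAR KO MEF, against 8 and 0 under common-median scaling and 1 and 0 under 75th-percentile scaling. No gene of the list reached an unadjusted limma p under 0.05 in the other direction. The C1 protease genes C1s1 and C1ra read 11.44 and 11.86 against 6.75 and 7.01, and 11.42 and 12.11 against 7.83 and 8.42. C1s2 read 11.74 and 12.02 against 6.73 and 7.19, and as a near-identical copy of C1s1 its signal may include that gene. C1 inhibitor (Serping1), which blocks these proteases, ran in the same direction and read 9.90 and 9.86 against 6.82 and 7.04.

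Cytokine genes were called in 8 of 37 cases (21.6%), 5 toward TIAR KO and 3 toward TIA1 KO MEF, against 11 and 3 under common-median scaling and 0 and 3 under 75th-percentile scaling. Tnfrsf11b, the decoy receptor osteoprotegerin, read 6.92 and 6.58 in TIAR KO and 12.95 and 13.20 in TIA1 KO MEF. The cyclooxygenases split, with Ptgs1 higher in TIAR KO (13.02 and 13.44 against 10.00 and 10.21) and the inducible Ptgs2 higher in TIA1 KO MEF (9.36 and 9.39 against 13.52 and 13.89). Ptgs2 messenger RNA carries AU-rich elements of the kind that TIA proteins bind, and whether they play a part in this difference was not tested. Il18, Lifr and Il1r1 were higher in TIAR KO MEF by 3.12, 2.61 and 1.92, and Il6 was at least 3.40-fold higher. Of 35 chemokine genes 5 were called (14.3%), 3 and 2, against 8 and 2 calls toward TIAR KO and TIA1 KO MEF under common-median scaling and 0 and 3 under 75th-percentile scaling. The monocyte attractants Ccl2, Ccl7 and Ccl9 were higher in TIAR KO MEF by 2.21, 2.05 and 2.61, the neutrophil attractant Cxcl5 was higher in TIA1 KO MEF by 3.60, and the scavenger receptor Ackr3 read 7.0 and 6.66 against 12.36 and 12.31. Of 19 Toll-like receptor genes and adaptors 2 were called (10.5%), against 8 and 0 under common-median scaling and 0 and 0 under 75th-percentile scaling. Tlr2 was higher in TIAR KO MEF by 2.84 and the co-receptor Cd14 in TIA1 KO MEF by 1.51.
Interferon-induced genes were called in 3 of 47 cases (6.38%, against 3.76% of all named genes), all higher in TIA1 KO MEF. Isg15 was higher there by 2.14, and Oasl1 and Oas1a at least 4.50-fold and 6.36-fold. At an unadjusted limma p under 0.05, 14 genes of the list were higher in TIAR KO and 11 in TIA1 KO MEF. Calls toward TIAR KO and TIA1 KO MEF were 10 and 3 under common-median scaling and 0 and 2 under 75th-percentile scaling. Irf7 and Rsad2 were near background on all 4 arrays. In antigen presentation, H2-K1 and H2-D1 were the calls among 31 genes (6.45%, against the same 3.76%). Under common-median scaling 4 were called higher in TIAR KO and 0 higher in TIA1 KO MEF, and 0 under 75th-percentile scaling. B2m, the partner of H2-K1 and H2-D1, differed by −0.42.

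Inhibitors of the cell cycle were called in both directions. Cdkn2a, the locus of p16 and p19Arf, read 16.13 and 16.27 in TIAR KO and 12.45 and 12.60 in TIA1 KO MEF (difference 3.67 ± 0.17, adjusted p = 0.0122). Its second probe ran the same way, 11.38 and 12.01 against 7.28 and 8.45, and was not called (adjusted p = 0.0569). The neighbouring gene Cdkn2b read 12.91 and 12.91 against 10.64 and 10.51, and Cdkn1b, which encodes p27, was higher in TIAR KO MEF by 1.68 ± 0.18. Cdkn1a, which encodes p21 and is a target of p53, ran the other way, 10.37 and 10.57 against 13.41 and 13.30, with 1 of its 3 probes called. Rb1 was higher in TIA1 KO MEF by 1.49. These 5 genes were the calls among 37 (13.5%), and Trp53 and Mdm2 differed by 0.93 and −0.61. No mitosis gene of 36 was called by limma (5 at an unadjusted p under 0.05, against 11935 of all 55681 probes). The list's differences lay between −1.16 and 1.24. Under common-median scaling 12 mitosis genes and 13 DNA replication genes were called higher in TIAR KO MEF, and 12 and 1 of the inhibitor list toward TIAR KO and TIA1 KO MEF. Under 75th-percentile scaling these counts were 0, 1, and 1 and 0. Of 41 DNA replication genes 1 was called (2.44%, below the 3.76% of all named genes), the primase subunit Prim2, which read 12.12 and 11.82 against 7.42 and 8.31. Of 32 apoptosis regulators 1 was called (3.12%, likewise below it), Bmf, at least 5.76-fold higher in TIAR KO MEF, against 12 calls in that direction under common-median scaling and 0 under 75th-percentile scaling. Among immediate early genes, which serum and stress induce, Egr1 and Nr4a1 were higher in TIA1 KO MEF by 3.24 and 3.33 and Dusp9 was at least 15.5-fold higher, out of 34 (8.82%), and 5 and 5 were called under common-median scaling and 0 and 3 under 75th-percentile scaling.

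Retinoid, arginine and nucleoside genes were called in 8 of 24 cases (33.3%), with 7 and 5 calls toward TIAR KO and TIA1 KO MEF under common-median scaling and 2 and 5 under 75th-percentile scaling. Aldh1a1, which makes retinoic acid, read 15.05 and 14.71 in TIAR KO and 7.18 and 8.24 in TIA1 KO MEF. The other retinoid genes called ran the other way: Crabp1 and Crabp2, which bind retinoic acid in the cell, read 6.92 and 7.28 against 12.66 and 12.84, and 9.50 and 9.30 against 13.83 and 13.92, and the synthetic enzyme Rdh10 and the degrading enzyme Cyp26b1 were higher in TIA1 KO MEF by 2.86 and 3.30. Ass1, of arginine synthesis, read 12.41 and 12.06 against 16.53 and 16.66. The nucleoside enzymes split, with Cda higher in TIAR KO MEF by 4.14 and Nt5e higher in TIA1 KO MEF by 2.12.
Among 51 mitochondrial dynamics and redox genes 4 were called (7.84%), 3 higher in TIAR KO and 1 higher in TIA1 KO MEF, against 27 and 1 under common-median scaling, 3 and 1 under 75th-percentile scaling and 11 and 3 without TIA1 KO replicate 2. Cyba, a membrane subunit of NADPH oxidases, read 14.25 and 13.71 in TIAR KO and 7.5 and 8.59 in TIA1 KO MEF, and its partner Cybb differed by −0.97 and was not called. The glutathione transferases Gstt1 and Gstm1 were higher in TIAR KO MEF by 3.87 and 2.28, and Gsta4 in TIA1 KO MEF by 1.93. Of 44 respiratory chain genes 2 were called (4.55%, close to the 3.76% of all named genes), Cox7a1 and Ndufv2, the former at least 3.24-fold higher in TIAR KO MEF and the latter higher by 1.52, against 13 calls in that direction under common-median scaling and 0 under 75th-percentile scaling. Lysosomal genes were called in 4 of 41 cases (9.76%), all higher in TIA1 KO MEF: Ctsh as given above, and Ctsw, Gaa and Man2b1 by 2.96, 2.13 and 1.62. Under common-median scaling 9 were higher in TIAR KO and 3 in TIA1 KO MEF, and under 75th-percentile scaling 0 and 2.

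The functions closest to TIA proteins themselves gave no calls in the fit of the 4 arrays. Of all named genes 3.76% were called, a share that leaves few calls in lists of these sizes. Among 20 AU-rich element binders and related RNA-binding proteins, which include Tia1 and Tial1, 0 were called by limma and 5 had an unadjusted p under 0.05. Elavl1 (HuR), G3bp1, Hnrnpd and Khsrp differed by 0.01, 0.07, −0.12 and 0.42. Likewise 0 of 38 splicing factors were called (4 under 0.05), 0 of 57 ribosomal protein genes (1 under 0.05) and 0 of 20 integrated stress response genes (6 under 0.05). Over all 55681 probes, 11935 were under 0.05 before adjustment. Under common-median scaling 16 splicing factors, 11 ribosomal protein genes and 9 stress response genes were called higher in TIAR KO MEF, and the AU-rich binders gave 5 and 1 calls toward TIAR KO and TIA1 KO MEF. Under 75th-percentile scaling none of these 4 lists had a call. With the wild-type arrays in the fit 1 splicing factor was called higher in TIAR KO and 1 AU-rich binder higher in TIA1 KO MEF. The differences of ribosomal protein genes lay between −1.18 and 0.55 and those of splicing factors between −0.60 and 1.12. No autophagy gene of 37 was called in the fit of the 4 arrays. At an unadjusted p under 0.05 there were 11 of them, against 11935 of all 55681 probes. Sqstm1 (p62) and Map1lc3a differed by 1.5 and 1.44 (adjusted p = 0.196 and 0.0557). Under common-median scaling 15 autophagy genes were called higher in TIAR KO MEF, beside a median of all probes that moved to 0.63, and 0 under 75th-percentile scaling. On the deposited values 3 were called with the filter on dim probes, 4 with the wild-type arrays in the fit and 2 with an intensity trend, all higher in TIAR KO MEF. Without TIA1 KO replicate 2, which left 1 TIA1 KO array, autophagy genes were called in both directions. Their median difference was then 0.26, against 0.11 with all 4 arrays. Of 25 glycolysis genes 0 were called by limma, 6 had an unadjusted p under 0.05, and 9 were called higher in TIAR KO MEF under common-median scaling and 0 under 75th-percentile scaling. In each of 5 further settings, with the filter on dim probes, with the wild-type arrays in the fit, with an intensity trend and in both quantile normalizations of the scanner files, 3 were called, all higher in TIAR KO MEF.

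**Figure D5:**
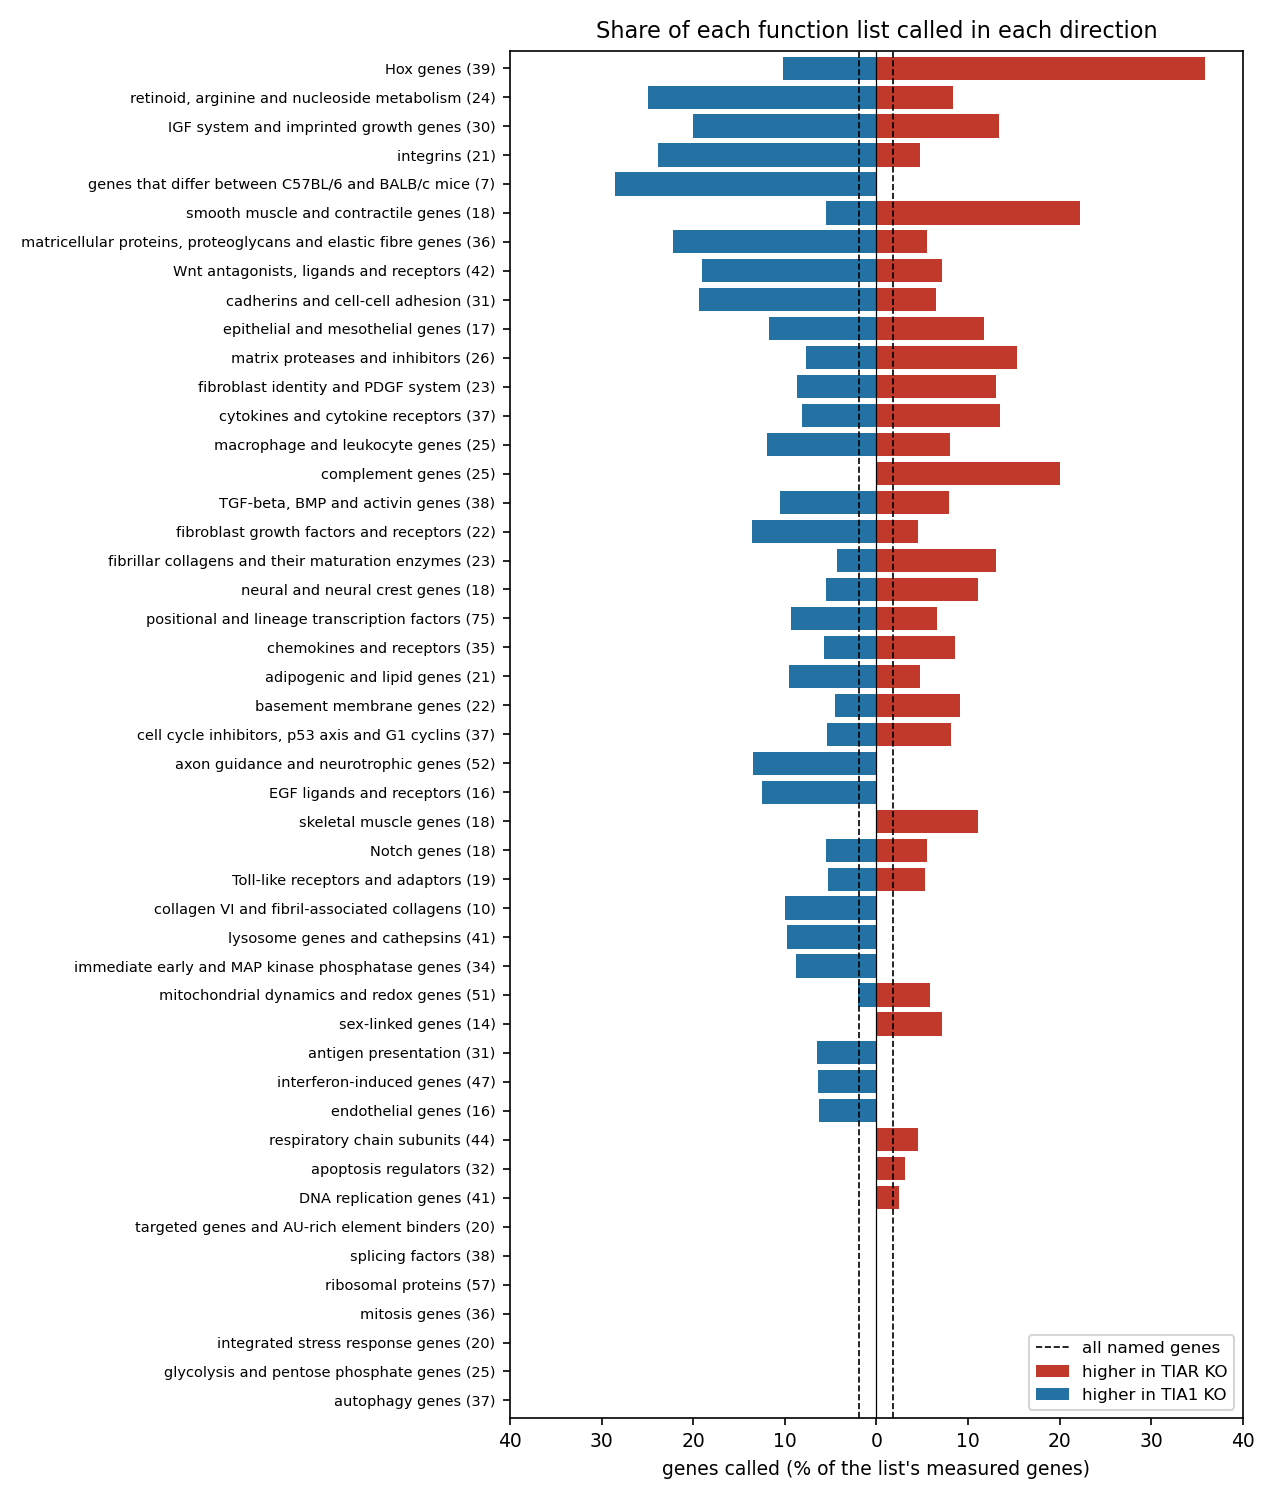
Share of the measured genes of each of 47 function lists (y axis, number of genes in brackets) called higher in TIAR KO MEF (red, to the right) and higher in TIA1 KO MEF (blue, to the left), in percent (x axis). Dashed lines give the shares among all named genes, 1.83% and 1.93%; the Hox list at the top has 46.2% called, and 7 lists at the bottom have none.

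The lists together held 1390 genes, some of them in more than 1 list, and 189 of these were called. The other 662 called genes were in no list. By position, called probes were spread over all autosomes, from 1.54% of the probes of chromosome 12 to 3.15% of those of chromosome 19, against 2.30% of all probes. Among probes well above background on all 4 arrays, whose median difference was 0.04, chromosome medians ran from −0.24 on chromosome 9 to 0.34 on chromosome 17. The called MHC genes H2-K1 and H2-D1 also lie on chromosome 17 and ran the other way, toward TIA1 KO MEF. Their part in its median was not tested.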

How the data were processed

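RNA of 2 TIAR KO and 2 TIA1 KO MEF arrays (1-colour Agilent mouse arrays on 1 slide, probe positions on mm9) was compared. The authors deposited log2 values (highest value 19.16). Per their methods and processing notes the background was corrected by normexp (offset 50), the log2 intensities were loess-normalized per array and quantiles were equalized between arrays, with limma. What the loess was run against is not given. The intensity of each spot, its local background and the flag for signal well above background were deposited by the authors as scanner output (Agilent Feature Extraction) and were used for background calls and for alternatives. The arrays' number limits the precision. Deposited values of a probe's several spots were averaged.

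Probes were tested with limma 3.58.1 in R 4.3.3 (lmFit and eBayes on the 4 arrays, 2-sided, Benjamini-Hochberg adjustment over all 55681 probes). Every p in the text is from this fit, except in counts given for an alternative setting, each from its own limma fit. The script was tested on simulated data. With 200 changed probes, 0%, 38.2% and 61.1% of changes of 1.5, 3 and 5 log2 units were called, with a mean of 11.6 false calls. With 4000 changed probes the shares were 61.0%, 84.2% and 93.0%, with a mean of 306 false calls. A gene that was not called can thus still differ. Of 27752 probes with a RefSeq accession, 27220 matched the RefSeq table, which changed 2834 symbols, and the array's name was kept otherwise. Genes named are the knocked-out genes, Gapdh, Actb, the 10 largest called differences in each direction with both arrays of the higher line rated above background, and list members, each read from its brightest probe over the 4 arrays. The comparison, its members and the lists were chosen with earlier results of these data known. Alternatives were other scalings from the scanner files, a filter on dim probes, all 3 groups in the fit, an intensity trend, a test of the fold itself, the replicate number as a block, the median over a gene's probes and each array left out. Some called list members are counted but not reported here by name.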

Additional observations from a re-analysis of the deposited data

How the results depend on the processing

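The count of 1278 called probes moved by over 1.5 times under 4 of the settings that kept all 4 arrays and no block: 8307 probes were called under common-median scaling, 2340 when the test was limited to probes that the scanner rated above background throughout at least 1 line, 3304 with the wild-type arrays in the fit and 408 when a fold above 2 was itself tested. The share of called probes that were higher in TIAR KO MEF was 87.2% under common-median scaling, 8.28% under 75th-percentile scaling, 60.4% with the filter on dim probes and 37.0% when the fold was tested. Leaving out 1 array at a time gave between 0 and 11386 called probes, and a share between 35.5% and 49.1% where any were called. The cause was not tested. Gapdh, which was not called, differed by −0.025 under 75th-percentile scaling and by 0.13 on the deposited values. The median difference of the ribosomal protein list was −0.065 on the deposited values and −0.041 under 75th-percentile scaling. Under common-median scaling it was 1.04. Of the 1278 probes, 1118 were also called under common-median scaling, 525 under 75th-percentile scaling, 938 with an intensity trend and 1028 without TIA1 KO replicate 1.

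The labels number the arrays 1 and 2 in both lines, and with the replicate number as a block 0 probes were called by limma, with 9662 at an unadjusted p under 0.05. Deviations of same-numbered arrays correlated at −0.06, a single correlation with 2 arrays per line, and no label says that a number marks a shared culture or day.

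For 678 called probes the lower line was not above background on either array, so only a lower limit of the fold is known.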

Other observations

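The genes of this section are in none of the function lists or were chosen after their values were seen. Klra genes encode receptors of natural killer cells. Of 14 measured 3 were called, all higher in TIA1 KO MEF, against 1.93% of all named genes in that direction. Klra4 read 6.61 and 6.47 in TIAR KO and 13.27 and 13.36 in TIA1 KO MEF, at least 110-fold higher, Klra22 read 6.66 and 6.84 against 13.20 and 13.28, and Klra16 read 7.20 and 7.18 against 13.63 and 12.99. A second Klra22 probe and the other Klra16 probes were not called, and these genes are near-identical copies whose number differs between mouse strains. Ferritin-like genes of the Fthl17 family, also near-identical copies, gave 3 calls of 4 toward TIAR KO MEF, against 1.83% of all named genes. Fthl17f read 12.73 and 13.02 against 6.84 and 6.11, while its second probe differed by 0.31 and was not called.

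Mtap, an enzyme of methionine salvage that lies beside Cdkn2a and Cdkn2b, was higher in TIAR KO MEF as they were, at 12.85 and 13.05 against 8.52 and 9.69 (limma adjusted p = 0.0478). Hoxa11os, the antisense RNA of Hoxa11, read 7.54 and 7.16 in TIAR KO and 14.06 and 14.05 in TIA1 KO MEF. Fabp7, a fatty acid binding protein of glia, read 13.48 and 13.85 in TIAR KO and 7.34 and 7.38 in TIA1 KO MEF, and the growth factor Ptn read 14.05 and 13.88 against 7.79 and 8.80, with both of its probes called. Fam20a, Cspg4 and the hyaluronan synthase Has2 ran the other way, with differences of −6.58, −5.84 and −4.90.

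The wild-type arrays, which the comparison did not use, had a mean between those of the knockouts for 795 of the 1278 called probes (62.2%), above both for 136 and below both for 347. Their mean was nearer to TIAR KO MEF for 487 of the 668 probes higher in TIA1 KO MEF and for 203 of the 610 higher in TIAR KO MEF. The wild-type line is of another strain and lay in the slide row of the TIAR KO arrays.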
